A study of Bos taurus with 8 samples.

Results

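The genes described here are 33 genes of glucose transport, glycolysis, lactate and pyruvate handling, the pentose phosphate pathway and glycogen metabolism in cells from cattle muscle. They were chosen by name as members of these pathways, and each of the 33 symbols matched 1 of the 21880 genes in the count matrices. The set holds the glucose carriers SLC2A1, SLC2A3 and SLC2A4, the enzymes from hexokinase (HK1, HK2) to pyruvate kinase (PKM), the lactate dehydrogenases LDHA and LDHB, the lactate carriers SLC16A1 and SLC16A3, pyruvate dehydrogenase kinase PDK1, 6 pentose phosphate enzymes, and PYGL, PYGM and GYS1 of glycogen turnover.

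Glycolysis splits glucose into pyruvate with a net gain of ATP, and lactate dehydrogenase interconverts pyruvate and lactate. The pentose phosphate pathway branches off at glucose 6-phosphate, where its oxidative arm makes NADPH and its non-oxidative arm, with transketolase (TKT) and transaldolase (TALDO1), exchanges carbon between ribose and glycolytic sugars. Several steps are carried by isozymes with tissue preference, and mature muscle fibres are known for ENO3, PGAM2, PYGM and PFKM.

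Cells were taken from semitendinosus muscle of 10 Belgian Blue cattle, adults and calves, and profiled by 3′ single-cell RNA sequencing at 5 timepoints, with 1 pooled library per timepoint: freshly digested muscle, passage 0 (P0, 72 h in serum-free growth medium), and passages 2, 5 and 8 (P2, P5, P8). Muscle cells were unsorted, and the study describes P0 cells as unsorted too, although the P0 sample labels also name SCs and FAPs. From P2 the library held sorted satellite cells (SCs, the muscle stem cells) of donors 5, 6 and 10 grown on laminin, sorted fibro-adipogenic progenitors (FAPs, stromal cells) of donors 4, 7 and 8 grown on collagen, and unsorted cultures of donors 1, 2 and 9 grown on fibronectin, all in the same serum-free medium. Donor 3 gave cells only in muscle. The sample labels name a run 1 and a run 2 for P0, P2 and P5, and these were treated as sequencing runs of 1 library. Since each timepoint is 1 library, library and timepoint cannot be told apart, and from P2 the sort, the coating and the donor change together. P0 cells were plated on fibronectin. Between P0 and P2 the sorted cultures therefore also went through the sort and a change of coating, while the unsorted cultures stayed on fibronectin.

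The 36129 cells that passed the authors' filters carried 20977722 UMIs (unique molecular identifiers, 1 per captured RNA molecule) in muscle and between 53376578 and 252316585 in the cultured libraries. The median cell had 4184 UMIs in muscle and 19375 at P0. Of 36000 distinct barcodes, 129 occurred in several libraries. The authors' cell types were checked on 3 markers each, or 6 for myocytes. PDGFRA and LUM peaked in FAPs and PAX7 and MYF5 in SCs at every timepoint, while in muscle DCN was highest in tenocytes and the macrophage marker CD68 in neutrophils, and CHRDL2 was near 0 in SCs at P0 and later. UMIs were summed per donor and cell type over at least 10 cells, and levels are given as CPM, the UMIs of a gene per 1000000 UMIs of that sum. At P0 the FAP markers also had UMIs in other cell types. Pooled over donors, DCN was at 2867 CPM in FAPs, 1139 in SCs and 1062 in macrophages, and LUM at 355, 270 and 163. PDGFRA was at 282, 61.4 and 108. The part of FAP RNA in the P0 levels of other cell types was not tested. Changes are log2 fold changes (log2FC) ± SE from edgeR's quasi-likelihood test across all genes, with donors as replicates. A gene was called when its adjusted p was under 0.05 and its log2FC was over 1 in size.

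After 72 h in culture, FAPs had 17 of 30 tested genes of these pathways called higher than in muscle, SCs had 16 of 24, and vascular endothelial cells (VECs) had 11 of 22, while the glucose carrier SLC2A3 was lower in each. PKM, ENO1 and PGD were called higher in 6 of 6 cell types compared, and SLC2A3 was called lower in 6 of 6, although in SCs and SMMCs it passed the filter on low counts only through muscle. The other 3 were smooth muscle and mesenchymal cells (SMMCs), macrophages and lymphatic endothelial cells (LECs). The median of the summed share of all UMIs held by the 33 genes was 0.474% in muscle FAPs and 1.31% in P0 FAPs, 0.390% and 1.24% in SCs, and 0.535% and 0.852% in VECs.

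In FAPs, 30 of the 33 genes passed the filter on low counts. Of these, 17 were called higher at P0, where 20.9% of all genes tested were, and 5 were called lower, where 22.5% were. In SCs 24 genes were tested, 16 of them higher against 15.8% of all genes and 2 lower against 18.5%. In VECs 22 genes were tested, 11 of them higher against 15.6% of all genes and 3 lower against 19.6%. The median log2FC of the tested genes was 1.43 in FAPs, 1.58 in SCs and 1.02 in VECs, beside 0.03, -0.01 and -0.02 over all genes. HK2, PGAM2 and PYGM in FAPs, SLC2A3 in SCs and SMMCs and ENO3 in VECs passed the filter only through the group in which they were high. For these, no donor of the other group reached the level of the filter. Genes that only part of the low donors reached are not in this list. In SCs, TKT, SLC16A1, HK1, PFKL and PFKP were such genes, with too few muscle donors at that level, so they too were tested through P0.

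Other groups of genes were compared between the same libraries. Of 14 tested immediate early and stress response genes, 13 were called lower at P0 in FAPs, in SCs and in VECs. Cell division genes called higher numbered 10 of 10 (FAPs), 6 of 10 (SCs) and 5 of 8 (VECs). Tricarboxylic acid cycle genes called higher numbered 7 of 21 (FAPs), 2 of 18 (SCs) and 4 of 18 (VECs), with none called lower. Over all genes 20.9% (FAPs), 15.8% (SCs) and 15.6% (VECs) were called higher, and 22.5%, 18.5% and 19.6% lower. The tricarboxylic acid cycle genes called higher in SCs and VECs lay near these shares. Depth differed too, and with all sums thinned to the smallest one, the called genes that could still be tested stayed called in 16 of 16 cases (FAPs), 10 of 11 (SCs, without ALDOA) and 12 of 13 (VECs, without PGD at 0.95). The part of digestion and cell division in the changes below was not tested.

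**Figure D1:**
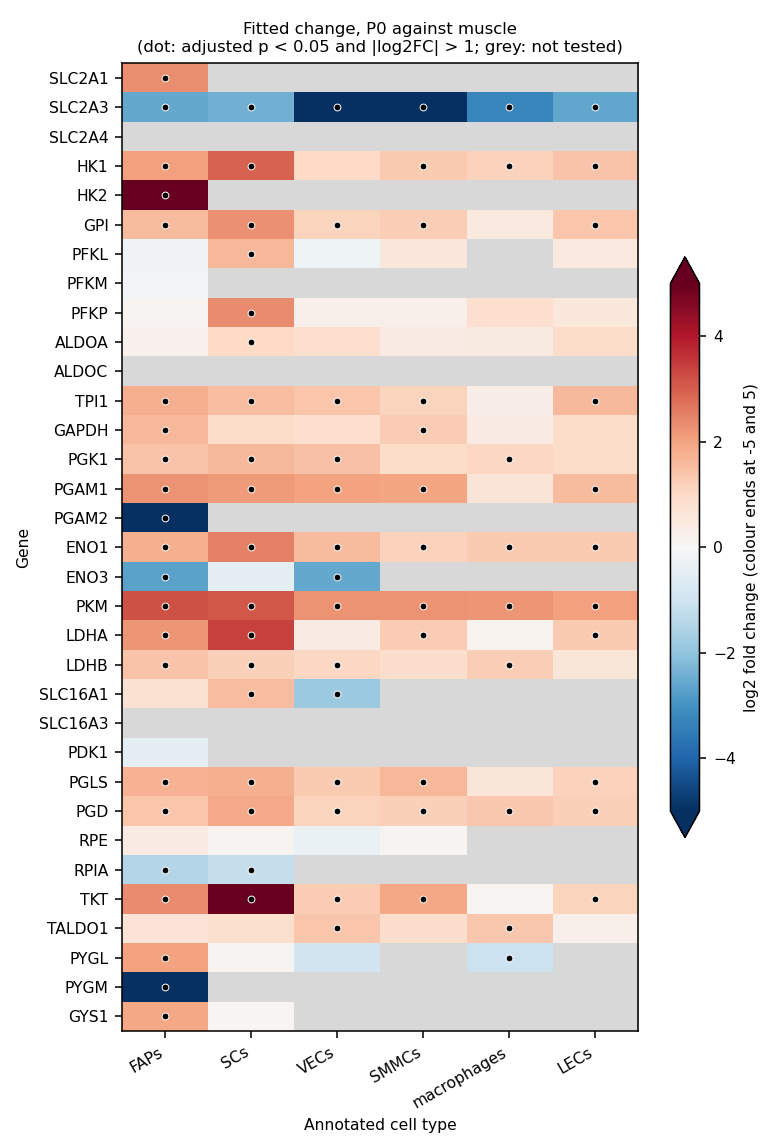
Fitted log2 fold change at P0 against muscle (colour, ending at -5 and 5) for each of the 33 genes (rows) in 6 annotated cell types (columns). Dots mark called genes and grey cells genes that were not tested. PKM, ENO1 and PGD are called higher in every column and SLC2A3 lower in every column.

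Among the glucose carriers, SLC2A3 (GLUT3, ENSBTAG00000004556), a high-affinity carrier, fell in every cell type compared. In VECs it was at 566 to 2677 (median 1383) CPM in 10 muscle donors and at 3.6 to 24.6 (median 13.6) in 9 P0 donors. The VEC groups lay far apart, with the lowest muscle donor above every P0 donor, and the log2FC was -6.55 ± 0.33 (adjusted p = 1.77e-12). FAPs had 42.4 to 165 (median 50.6) in muscle and 9.28 to 15.2 (median 10.9) at P0, a log2FC of -2.56 ± 0.25 (adjusted p = 7.77e-09). In SCs the medians were 61.8 and 11.1 and the log2FC was -2.40 ± 0.29 (adjusted p = 1.36e-07), although SLC2A3 passed the filter there only through muscle. Neither of these 2 cell types had overlapping groups for SLC2A3, and their P0 medians were close to that of VECs. The basal carrier SLC2A1 (GLUT1) was tested only in FAPs, where it rose from a median of 3.49 (21 UMIs in all) to 12.4, a log2FC of 2.33 ± 0.34 (adjusted p = 1.02e-06). SLC2A4, the insulin-responsive carrier, did not pass the filter in any cell type at P0 against muscle and had 10 UMIs in muscle FAPs.

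Hexokinase traps glucose in the cell as glucose 6-phosphate. HK1 rose in FAPs from 42.8 to 103 (median 67.2) CPM in muscle to 233 to 282 (median 256) at P0, with a log2FC of 2.05 ± 0.10 (adjusted p = 1.22e-15). SCs started lower, at 3.10 to 32.9 (median 20.6), and reached 131 to 190 (median 171), a log2FC of 2.97 ± 0.16 (adjusted p = 2.19e-14). The muscle and P0 donors did not overlap in either cell type. VECs missed the fold threshold for HK1 at a log2FC of 0.99 (adjusted p = 3.45e-09) and passed it with donor as a block, at 1.09 (adjusted p = 4.64e-09). HK2, the inducible hexokinase, had 1 UMI in all muscle FAPs and 1285 in P0 FAPs, which is a ratio of 72.9 in CPM with a 95% counting interval of 13.1 to 2880.

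The next steps convert glucose 6-phosphate to triose phosphates. GPI, which makes fructose 6-phosphate, was called higher in FAPs (1.59 ± 0.09), SCs (2.28 ± 0.11) and VECs (1.11 ± 0.14). Phosphofructokinase, which commits sugar to glycolysis, was called in SCs and not in FAPs or VECs. PFKP, its platelet-type subunit, was at 9.88 to 36.8 (median 21.5) in muscle SCs and 90.8 to 124 (median 108) in P0 SCs, a log2FC of 2.35 ± 0.15 (adjusted p = 4.53e-13) with no overlap. FAPs already held 112 to 167 (median 132) CPM of PFKP in muscle, beside 127 to 154 (median 142) at P0. These FAP groups overlapped and the log2FC was 0.14 ± 0.09 (adjusted p = 0.122). PFKL, the liver-type subunit, likewise rose in SCs (1.65 ± 0.23, adjusted p = 4.36e-07) and had a log2FC of -0.16 in FAPs and -0.23 in VECs, neither called. ALDOA, the main aldolase of muscle, was called in SCs alone among these cell types, at 1.00 ± 0.09 (adjusted p = 5.49e-10), beside 0.23 in FAPs and 0.84 in VECs. In SCs it lay near the threshold and was at 0.89 once all sums were thinned to one depth, and in VECs it was called at 1.02 with donor as a block.

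Of the later steps of glycolysis, which yield ATP, PKM, ENO1, PGAM1, PGK1 and TPI1 rose in all 3 cell types. PKM (ENSBTAG00000001601), which makes pyruvate, had the largest change of these steps in each of them. Its level in FAPs was 107 to 198 (median 147) in muscle and 1215 to 1363 (median 1279) at P0. SCs had 81.9 to 176 (median 147) in muscle and 1081 to 1402 (median 1287) at P0, and VECs 119 to 197 (median 140) and 645 to 853 (median 734). Every P0 donor was above every muscle donor in each of the 3 cell types, with a log2FC of 3.19 ± 0.11 in FAPs, 3.10 ± 0.10 in SCs and 2.25 ± 0.11 in VECs (adjusted p = 2.01e-18, 5e-18 and 9.41e-17). The 3′ tags do not separate the spliced PKM isoforms M1 and M2.

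TPI1, which interconverts the trioses, rose by 1.83 in FAPs, 1.53 in SCs and 1.37 in VECs on the log2 scale. PGAM1, a phosphoglycerate mutase, rose by 2.25, 2.13 and 2.01 in the same order, ENO1, the ubiquitous enolase, by 1.79, 2.52 and 1.56, and PGK1, the first ATP-making enzyme, by 1.43, 1.61 and 1.46. Their adjusted p-values ran from 1.4e-19 for PGAM1 in FAPs to 5.35e-10 for TPI1 in VECs. GAPDH, the oxidising step, was called in FAPs at 1.64 ± 0.12, and its log2FC of 0.93 in SCs (1.14 and called with donor as a block) and 0.83 in VECs stayed under the threshold. Muscle SCs spread widely for GAPDH, from 594 to 1820 (median 1160) CPM. GAPDH, LDHB and PGAM1 have near-identical copies in mammalian genomes, so reads shared with such copies make their values less certain.

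**Figure D2:**
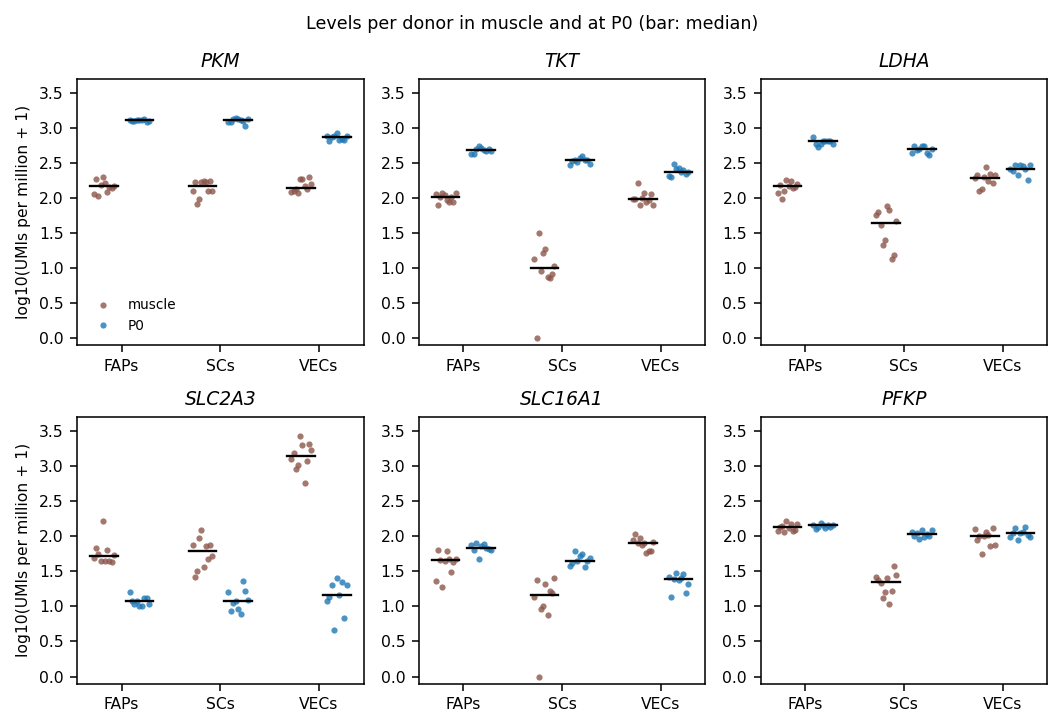
Levels of 6 genes per donor in muscle (brown) and at P0 (blue) in FAPs, SCs and VECs, as log10(CPM + 1), with bars at the median. PKM donors are separated in all 3 cell types, TKT and PFKP muscle donors are lowest in SCs, and SLC2A3 muscle donors are highest in VECs.

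LDHA (ENSBTAG00000008683), the lactate dehydrogenase subunit that prevails in glycolytic tissue, rose in FAPs and SCs. FAPs went from 96.1 to 179 (median 146) in muscle to 527 to 751 (median 649) at P0, a log2FC of 2.20 ± 0.10 (adjusted p = 1.12e-15). SCs went from 12.4 to 75.4 (median 43.6) to 411 to 562 (median 495), a log2FC of 3.42 ± 0.19 (adjusted p = 2.03e-13). These groups did not overlap. In VECs the muscle donors, at 125 to 280 (median 196), overlapped the P0 donors, at 179 to 295 (median 262), with a log2FC of 0.42 ± 0.12 that was not called (adjusted p = 0.00301). LDHB, the subunit of oxidative tissue, was called in all 3, at 1.43 in FAPs, 1.17 in SCs and 1.05 in VECs. SLC16A1 (MCT1), a carrier of lactate and pyruvate, moved in opposite directions. It rose in SCs from 0 to 24.4 (median 13.6) to 35.0 to 61.3 (median 43.8), a log2FC of 1.55 ± 0.22 (adjusted p = 8.73e-07), and fell in VECs from 56.1 to 107 (median 79.1) to 12.4 to 28.8 (median 23.9), a log2FC of -1.87 ± 0.16 (adjusted p = 4.18e-11). Both cell types had separate groups, while FAPs were at 0.74 ± 0.15 and not called. SLC16A3 was not tested in these comparisons, and PDK1, which restrains pyruvate oxidation, was tested only in FAPs (-0.47 ± 0.27, adjusted p = 0.116).

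In the pentose phosphate pathway, TKT (ENSBTAG00000003758) had the largest change in FAPs and SCs. SCs had 0 to 30.7 (median 9.00) CPM in muscle, 29 UMIs in all, and 298 to 396 (median 344) at P0, and TKT passed the filter there through its P0 donors. FAPs had 79.2 to 118 (median 103) and 418 to 562 (median 487), and VECs 77.6 to 162 (median 96.8) and 200 to 307 (median 234). No muscle donor reached the P0 range in any of the 3, and the log2FC was 4.99 ± 0.18 in SCs, 2.36 ± 0.09 in FAPs and 1.26 ± 0.12 in VECs (adjusted p = 3.48e-17, 2.7e-17 and 4.3e-10). The oxidative enzymes PGD and PGLS were called higher in all 3, PGD at 1.40, 1.88 and 1.12 and PGLS at 1.76, 1.77 and 1.29 in FAPs, SCs and VECs. TALDO1 was called in VECs (1.37 ± 0.11), and had a log2FC of 0.68 in FAPs and 0.79 in SCs, where donor as a block gave 1.08. RPIA, which isomerises ribose 5-phosphate, moved the other way, with a log2FC of -1.45 ± 0.17 in FAPs and -1.17 ± 0.19 in SCs. In SCs the RPIA groups overlapped, and a fit blocked by donor gave -0.86 (adjusted p = 0.00121), under the fold threshold. RPE, the epimerase, was not called in FAPs (0.40), SCs (0.13) or VECs (-0.32).

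Glycogen genes differed by cell type. PYGL, the liver-type glycogen phosphorylase, rose in FAPs from 0 to 18.9 (median 7.26) to 24.8 to 40.4 (median 31.9), a log2FC of 2.01 ± 0.21 (adjusted p = 4.96e-09) with no overlap. In SCs it was at a median of 47.1 in muscle and 43.3 at P0 (log2FC 0.15 ± 0.20, adjusted p = 0.5), and in VECs at 152 and 80.4 (log2FC -0.96 ± 0.22, adjusted p = 0.000445, not called). GYS1, glycogen synthase, rose in FAPs (1.95 ± 0.19, adjusted p = 1.74e-09), from 2.32 to 15.6 (median 6.47) to 22.5 to 30.6 (median 28.8). SC groups overlapped for GYS1, with medians of 33.5 and 43.4 and a log2FC of 0.11 ± 0.19 (adjusted p = 0.598).

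Part of the fibre isozymes were lower at P0, and RNA of other fibre genes was present in the same muscle cells. In FAPs PGAM2 reached 32.2 (median 27.0) CPM in muscle (208 UMIs) and had 10 UMIs at P0, and PYGM was at 12.7 to 37.4 (median 24.2) in muscle (197 UMIs) and had 8 at P0. Both were called lower, but since they passed the filter only through muscle and were near 0 at P0, no fitted size is given. ENO3 was called lower in FAPs (-2.67 ± 0.18), and in VECs, where it passed only through muscle, it had 230 UMIs and a median of 54.0 CPM in muscle and 120 UMIs and 10.3 CPM at P0 (-2.56 ± 0.21). ENO3 in SCs was at 10.2 to 193 (median 109) CPM in muscle and 56.7 to 136 (median 83.0) at P0, which overlap, and its log2FC of -0.45 ± 0.22 was not called (adjusted p = 0.0662). PFKM in FAPs was at 4.92 to 17.0 (median 11.3) and 7.35 to 9.90 (median 8.76), which overlap too, with a log2FC of -0.13 ± 0.17 (adjusted p = 0.496). A list of 20 fibre genes, such as ACTA1 and CKM, was at 1738 CPM in muscle FAPs, 1318 in SCs, 1039 in VECs and 157324 in the 45 cells annotated as myocytes, against 5.83 in P0 FAPs and 4.38 in P0 SCs. All 20 fibre genes had UMIs in muscle FAPs and VECs and 19 in SCs. Each fibre gene tested at P0 against muscle was called lower, numbering 18 (FAPs), 10 (SCs) and 10 (VECs). The whole list summed to 7.92 CPM in P0 VECs, so single fibre genes were near 0 at P0 in these cell types. A tested fibre gene could then hardly be called other than lower. These counts are therefore not read as a test, and no fitted size is given.

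Each isozyme was also set against the fibre list. PGAM2 had 13.7 UMIs per 1000 fibre UMIs in myocytes and 14.6 to 19.3 in FAPs, SCs, VECs, SMMCs and macrophages. ENO3 had 30.9 in myocytes, 47.6 in FAPs, 54.1 in VECs, 48.7 in SMMCs, 61.3 in macrophages and 88.2 in SCs. PYGM had 4.51 in myocytes, 4.87 in SMMCs, 6.59 in VECs, 7.73 in macrophages, 9.74 in SCs and 14.7 in FAPs. Neutrophils had 37.5, from 9 PYGM UMIs in all. Among the types named, the ENO3 ratio was highest in SCs and, neutrophils aside, the PYGM ratio in FAPs. No donor reached 10 myocytes, so the myocyte ratios rest on pooled cells. The part of fibre RNA in the isozyme levels was not tested.

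PFKM stood apart in SMMCs, with 109 UMIs per 1000 fibre UMIs against 2.33 in myocytes and 5.66 to 9.41 in FAPs, SCs, VECs and macrophages. SLC2A4 had 125 in SMMCs, 0.421 in myocytes and 0.745 in FAPs. These ratios divide by fibre UMIs, which fill myocytes. In CPM, pooled over donors, PFKM was at 57.4 in SMMCs and 367 in myocytes, and SLC2A4 was at 65.6 in SMMCs and 66.2 in myocytes (11 UMIs), against 1.29 in FAPs. Per donor, muscle SMMCs had 7.69 to 142 (median 40.2) CPM of PFKM and 32.6 to 144 (median 65.1) of SLC2A4. After thinning each cell to 1000 UMIs, 7.90% of SMMCs and 7.68% of myocytes held an SLC2A4 UMI (unthinned, 19.0% and 17.8%), against 0.101% of FAPs and 0.115% of macrophages (unthinned, 0.731% and 0.496%). Median depths were 2792 UMIs in SMMCs, 6213 in FAPs and 6108 in macrophages. Thinning left out 8 of 548 SMMCs, 5 of 45 myocytes, 4 of 1231 FAPs and 1 of 403 macrophages. Neither gene was tested in SMMCs.

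**Figure D3:**
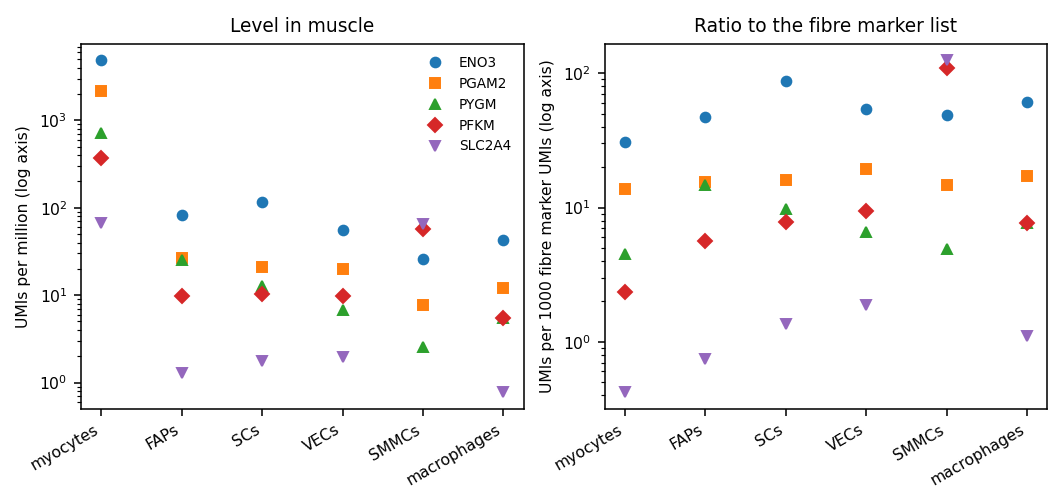
Levels of 5 genes with fibre isozymes or carriers in muscle, by annotated cell type, as CPM (left, log axis) and as UMIs per 1000 UMIs of the 20 fibre genes (right, log axis), pooled over donors. The PGAM2 ratio lies between 13.7 and 19.3 in the 6 types shown, while PFKM and SLC2A4 are at 109 and 125 in SMMCs. In CPM, SLC2A4 is nearly level in SMMCs (65.6) and myocytes (66.2).

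SMMCs, macrophages and LECs were compared over fewer cells. In SMMCs 19 genes were tested at P0 against muscle, of which 11 were called higher against 15.1% of all genes and 1 lower against 21.3%. Macrophages had 18 tested, 7 higher against 14.3% and 2 lower against 20.4%. In LECs, with 7 against 4 donors, 18 were tested, 10 higher against 14.8% and 1 lower against 14.8%. Beside PKM, ENO1 and PGD, HK1 was called higher in all 3, although in macrophages the fit blocked by donor took HK1 from 1.13 to 0.98 and PGK1 from 1.02 to 0.87, under the threshold. With the block TALDO1 in SMMCs (1.03) and ALDOA (1.36), GAPDH (1.18) and PGK1 (1.44) in LECs were called too.

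In SMMCs, beside PKM (2.23 ± 0.17), the genes called higher with the largest log2FC were PGAM1 (1.98), TKT (1.95 ± 0.15), PGLS (1.65), HK1 (1.33), GAPDH (1.27), LDHA (1.26) and GPI (1.21), and PGD (1.19), ENO1 (1.16) and TPI1 (1.12) completed the 11, with overlapping groups for LDHA and PGD. In macrophages they were PKM (2.20), PGD (1.35), TALDO1 (1.33), ENO1 (1.29), LDHB (1.25), HK1 (1.13) and PGK1 (1.02). In LECs they were PKM (2.06), TPI1 (1.61), PGAM1 (1.59), HK1 (1.41), GPI (1.38), LDHA (1.33), ENO1 (1.31), PGD (1.19), PGLS (1.14) and TKT (1.10), of which PGD had overlapping groups and an adjusted p of 0.0424 by edgeR.

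SLC2A3 fell in SMMCs from 228 to 1351 (median 750.0) to 7.89 to 38.4 (median 10.7), in macrophages from 252 to 992 (median 544) to 27.1 to 116 (median 61.7), and in LECs from 285, 108, 91.1 and 267 in the 4 muscle donors to 15.1 to 62.0 (median 32.9) in 7 P0 donors. The groups did not overlap in any of them, and the log2FC was -5.67 ± 0.46, -3.26 ± 0.34 and -2.58 ± 0.36. In SMMCs SLC2A3 had passed the filter on low counts only through muscle. PKM rose in macrophages from 116 to 401 (median 224) to 1200.0 to 1427 (median 1252), a log2FC of 2.20 ± 0.16 (adjusted p = 1.98e-12). In macrophages the log2FC was small for TKT (0.09, adjusted p = 0.66) and LDHA (0.17, adjusted p = 0.490), whose muscle donors reached 521 and 775 CPM and overlapped those at P0. Whether these changes differed from those in FAPs and SCs was not tested. PYGL was called lower in macrophages (-1.08 ± 0.20, adjusted p = 4.21e-05), where the groups overlapped.

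Whether the change differed between cell types was tested as an interaction in 1 fit of FAPs, SCs and VECs over 29 of the genes. FAPs against SCs gave 3 genes with a larger log2FC in FAPs, against 7.28% of all genes, and 8 with a smaller one, against 12.9%. TKT (-2.88 ± 0.23), ENO3 (-2.47 ± 0.27), PFKP (-2.46 ± 0.19), PFKL (-2.07 ± 0.27), LDHA (-1.48 ± 0.22), HK1 (-1.17 ± 0.20), SLC16A1 (-1.07 ± 0.29) and ALDOA (-1.04 ± 0.14) had the smaller log2FC in FAPs. For ENO3, called lower in FAPs and not called in SCs, this was a larger fall in FAPs. SLC2A1 (1.92 ± 0.49), PYGL (1.59 ± 0.36) and GYS1 (1.57 ± 0.28) had the larger log2FC in FAPs. The adjusted p-values of these 11 ran from 6.52e-17 for PFKP to 0.00214 for SLC16A1. With all sums thinned to one depth 7 of the 11 could still be tested, and PFKP, ENO3, LDHA, TKT and PYGL stayed called. SLC2A1 had not passed the filter in SCs alone.

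FAPs against VECs gave 7 genes with a larger log2FC in FAPs, against 13.1% of all genes, and 1 with a smaller one, against 12.7%. The larger ones were HK2, SLC2A3 (3.88), PYGL (2.82), SLC16A1 (2.50), GYS1 (2.37), LDHA (1.66) and the fibre isozyme PFKM (1.15), and the smaller one was RPIA (-1.18). HK2 had 1 UMI in muscle FAPs and 3 in muscle VECs, so its fitted value is not read as a size, and HK2, GYS1, PFKM and RPIA had not passed the filter in VECs alone. With donor as a block HK1 (1.04) and TKT (1.05) were called as well. SCs against VECs gave 11 larger, against 12.7% of all genes, and 1 smaller, against 7.91%. SLC2A3 (4.28), TKT (3.86), SLC16A1 (3.57), LDHA (3.13), ENO3 (2.26), PFKP (2.23), HK1 (2.12) and PFKL (2.01) led this list, and SLC2A1 (-1.95) was the smaller one. SLC2A1 had not passed the filter in SCs or in VECs alone, with 35 and 7 UMIs in muscle, 606 and 107 at P0 and a muscle median of 0 CPM in VECs, and it could not be tested after thinning. PKM (0.99) was called with the block (1.04) and after thinning (1.04). ENO1 (1.09) lost its call with at least 30 cells per sum (0.93) and after thinning (0.92). Thinning left 9 of these 12 genes to test, of which 8 stayed called. After thinning 3 of the 8 genes of FAPs against VECs could be tested, and SLC2A3, LDHA and PYGL stayed called.

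Within muscle, SCs were lower than FAPs for part of these genes, and at P0 the levels were closer. The authors named the cell types from the same expression values, so levels of SCs and FAPs in muscle, at P0 and at later passages are not independent of the names. In muscle 21 genes were tested, none called higher in SCs (6.54% of all genes were, by edgeR; 8 genes in all were called by DESeq2 too, and 14 had an unadjusted p under 0.05 in either direction) and 8 called lower, against 13.4% of all genes. Between the same cells, 10 of 14 tested immediate early and stress response genes were called higher in SCs and 1 lower (median log2FC 1.30), and 3 of 13 fibre genes lower, and their part was not tested. The 8 genes of these pathways called lower in SCs were TKT (-3.33 ± 0.24), PFKP (-2.78 ± 0.17), PFKL (-2.18 ± 0.26), LDHA (-1.79 ± 0.22), HK1 (-1.72 ± 0.21), GPI (-1.34 ± 0.15), ALDOA (-1.19 ± 0.12) and PGD (-1.09 ± 0.17). The muscle ranges given above for TKT, PFKP, LDHA and HK1 did not overlap between the cell types. Thinned to one depth, 1 of the 8, ALDOA, kept enough counts to be tested and was called, whereas with no filter on low counts 15 genes were called.

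At P0, 31 genes were tested, with 1 called higher in SCs against 5.98% of all genes and 1 lower against 4.69%. ENO3 (ENSBTAG00000005534), the muscle enolase, was at 56.7 to 136 (median 83.0) in SCs and 7.95 to 19.9 (median 11.9) in FAPs, so each SC value was above each FAP value, and the log2FC was 2.84 ± 0.19 (adjusted p = 4.88e-10). SLC16A3 (MCT4), a lactate exporter, was at 0.224 to 2.36 (median 0.814) in SCs and 1.48 to 2.90 (median 2.10) in FAPs, which overlap (log2FC -1.31 ± 0.30, adjusted p = 0.00107). The 8 genes lower in muscle SCs had a log2FC between -0.60 (HK1) and -0.17 (PFKL) at P0, with TKT at -0.51 and LDHA at -0.35, none of them called.

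At P2, SCs of sorted SC cultures (donors 5, 6 and 10) were set against FAPs of sorted FAP cultures (donors 4, 7 and 8). Of 32 genes tested, 2 were called higher in SCs against 7.69% of all genes and 5 lower against 11.8%. ENO3 was at 1207, 1243 and 724 CPM in the SC cultures and 38.7, 25.9 and 24.6 in the FAP cultures (log2FC 4.99 ± 0.31, adjusted p = 0.000316). PGAM2, another fibre isozyme, was at 4.91, 2.21 and 0.819 against 0.380, 0.300 and 0.167 (3.01 ± 0.75, adjusted p = 0.0229), and its call was lost without donor 5, 7 or 8 (adjusted p = 0.0514, 0.0805 and 0.0702). It passed the filter on low counts only through the SC cultures. The SC cultures lay above the FAP cultures for both genes, and 9 of 12 tested fibre genes were called higher in them too. Of the immediate early and stress response genes 11 of 15 were called lower in the SC cultures and 1 higher (median log2FC -1.42), and 3 of 10 cell division genes higher. The part of these lists in the differences was not tested.

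SLC16A3 was at 0.378, 0.382 and 0.347 in SC cultures and 4.22, 2.96 and 3.06 in FAP cultures (-3.37 ± 0.25, adjusted p = 0.00045). ALDOC (ENSBTAG00000013099), the brain-type aldolase, was at 5.22, 3.52 and 6.90 against 21.6, 32.2 and 31.2 (-2.62 ± 0.29, adjusted p = 0.0015). SLC2A3 (-1.47 ± 0.14), TKT (-1.43 ± 0.20) and HK1 (-1.16 ± 0.15) were also lower in the SC cultures, TKT at 135, 145 and 215 against 444, 404 and 335. None of these 5 genes had overlapping groups. PGAM2 and SLC16A3 passed the filter only through the group in which they were high.

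In the unsorted cultures of donors 1, 2 and 9, both cell types came from the same donors, and only the authors' names, drawn from expression, divide them. Of 31 genes tested at P2, 2 were called higher in SCs against 6.33% of all genes and 2 lower against 6.52%. ENO3 was at 714, 701 and 451 in SCs and 27.2, 22.1 and 21.1 in FAPs (4.62 ± 0.20, adjusted p = 9.78e-06). ALDOC was at 6.21, 4.30 and 8.44 in SCs and 37.1, 41.2 and 36.8 in FAPs (-2.69 ± 0.21, adjusted p = 0.000111). The 2 cell types were separate for both genes in every one of the 3 donors, as in the sorted cultures. SLC16A3 (-3.26 ± 0.52, adjusted p = 0.00301) lost its call without donor 9 (adjusted p = 0.0544), and SLC2A4 (1.01 ± 0.25, adjusted p = 0.0209) lost it without donor 1, 2 or 9 (log2FC 1.21, 0.75 and 1.09). TKT had 236, 224 and 250 CPM in these SCs and 381, 374 and 423 in the FAPs, and was not called.

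**Figure D4:**
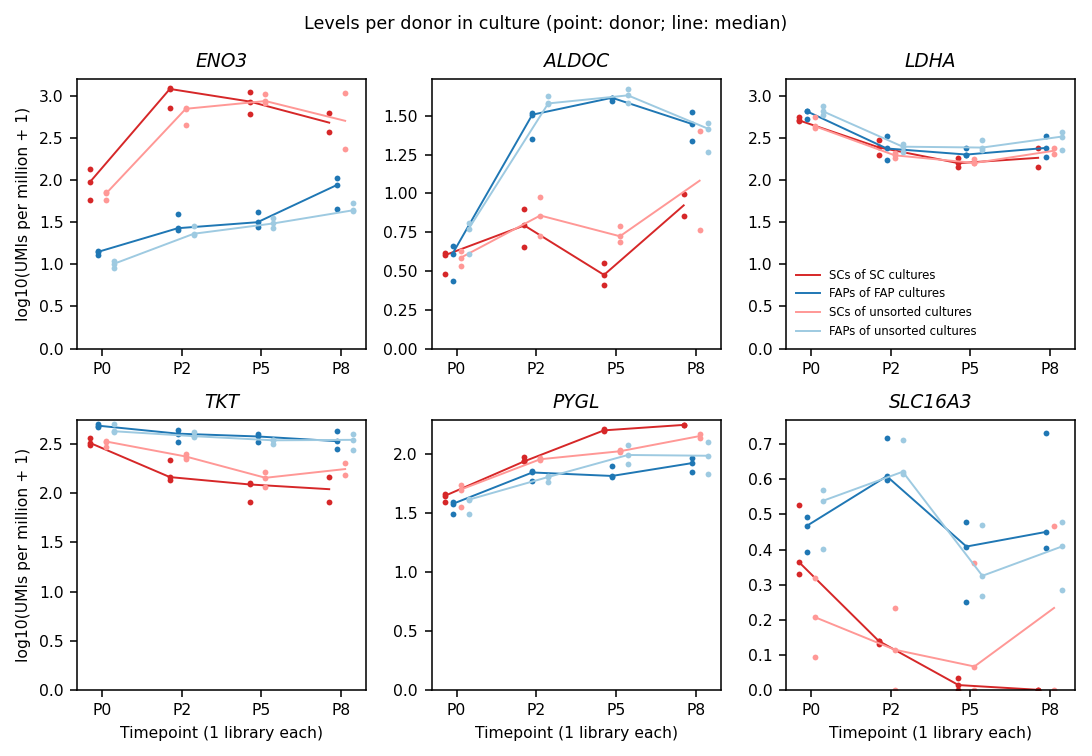
Levels of 6 genes per donor from P0 to P8 as log10(CPM + 1), for SCs and FAPs of sorted and of unsorted cultures (points are donors, lines join medians). ENO3 stands highest in SCs from P2 on, ALDOC in FAPs at P2 and P5, and LDHA is lower at P2 than at P0 in each group of cultures.

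From P0 to P2, FAPs of donors 4, 7 and 8, which were sorted and moved to collagen in between, gained ALDOC and lost LDHA. Of 31 genes tested, 4 were called higher at P2 against 13.4% of all genes and 7 lower against 9.37%. ALDOC was at 1.74, 3.57 and 3.10 at P0 and 21.6, 32.2 and 31.2 at P2 (3.42 ± 0.29, adjusted p = 0.000427). LDHA was at 527, 651 and 658 at P0 and 334, 236 and 171 at P2 (-1.20 ± 0.24, adjusted p = 0.00557). Both genes had separate groups, and each of the 3 donors moved in the called direction. ENO3 (1.32 ± 0.18), PYGL (1.02 ± 0.14) and SLC16A3 (1.01 ± 0.24) were the other genes higher, the last of which was under the threshold with donor as a block (0.99). RPIA (-1.52 ± 0.16), SLC2A1 (-1.34 ± 0.44), HK2 (-1.27 ± 0.43), SLC2A4 (-1.24 ± 0.35), TPI1 (-1.19 ± 0.24) and PGAM1 (-1.01 ± 0.24) were the others lower, and the block added SLC16A1 (-1.02). The 11 calls came to 4 without donor 7, 7 without donor 8 and 10 without donor 4. LDHA was at -1.15 (adjusted p = 0.0796) without donor 7 and -0.94 without donor 8, and PYGL was at 0.91 without donor 4. ALDOC, ENO3 and RPIA stayed called without each donor. Of 10 cell division genes, 9 were called lower at P2 in these FAPs, and 6 of 15 immediate early and stress response genes were called higher.

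FAPs of the unsorted cultures gave 2 calls higher against 13.4% of all genes and 6 lower against 10.6%, of 31 tested. ALDOC was at 4.91, 3.09 and 5.44 at P0 and 37.1, 41.2 and 36.8 at P2 (3.29 ± 0.19, adjusted p = 8.16e-06), and LDHA at 752, 583 and 652 and then 269, 211 and 248 (-1.27 ± 0.11, adjusted p = 3.18e-05). Again each of the 3 donors rose for ALDOC and fell for LDHA, with no overlap. ENO3 (1.55) was higher, and RPIA (-1.95), SLC2A1 (-1.16), TPI1 (-1.09), HK2 (-1.08) and SLC2A4 (-1.02) were lower. SLC2A4 fell under the fold threshold after thinning (-0.93), without donor 2 (-0.92) and with no filter, and HK2 without donor 2 (-0.88). All 10 cell division genes were called lower at P2 here as well, and 8 of 15 immediate early and stress response genes were called higher.

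SCs of donors 5, 6 and 10 gave 3 calls higher at P2 against 5.67% of all genes and 4 lower against 4.09%, of 32 tested. ENO3 was at 56.7, 136 and 94.6 at P0 and 1207, 1243 and 724 at P2 (3.45 ± 0.34, adjusted p = 0.00153). PYGL was at 38.5, 44.9 and 43.3 and then 86.1, 86.1 and 92.8 (1.05 ± 0.09, adjusted p = 0.00104). The groups were apart for both, and 9 of 13 tested fibre genes were called higher as well. PGAM2 had 2 UMIs at P0 and 234 at P2, a ratio of 24.1 in CPM with a 95% counting interval of 6.60 to 200. PGAM2 and SLC16A3 had passed the filter only through the timepoint at which they were high. None of 10 tested cell division genes was called in these SCs (median log2FC -0.59). SLC16A3 (-2.0 ± 0.42), SLC2A3 (-1.32 ± 0.19), LDHA (-1.10 ± 0.14) and TKT (-1.03 ± 0.17) were lower. The 7 calls came to 3 without donor 5, 3 without donor 6 and 6 without donor 10. TKT was at -0.92 and -0.89 without donors 5 and 6, LDHA at -0.93 without donor 6, and PGAM2 lost its call without donor 5 or 6 (adjusted p = 0.169 and 0.269), while ENO3 and PYGL stayed called.

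SCs of the unsorted cultures gave 2 calls higher against 7.66% of all genes and 4 lower against 6.76%, of 30 tested. ENO3 was at 70.7, 68.5 and 57.0 at P0 and 714, 701 and 451 at P2 (3.32 ± 0.19, adjusted p = 8.86e-06), so each donor rose. ALDOC (1.28 ± 0.35) was higher too, and RPIA (-1.39), HK2 (-1.27), LDHA (-1.18) and SLC2A1 (-1.15) were lower, with SLC16A1 (-1.08) added by the block. Thinned to one depth, SLC2A1 (adjusted p = 0.0714) and RPIA (adjusted p = 0.100) lost their calls too, and DESeq2 did not call ALDOC (adjusted p = 0.0738). Cell division genes were called lower in 10 of 10 cases. ALDOC, RPIA and SLC2A1 lost their calls without donor 1 (adjusted p = 0.157, 0.141 and 0.0937) or donor 9 (adjusted p = 0.193, 0.0614 and 0.0677).

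After P2 few changes passed both thresholds. In FAPs of FAP cultures at P5 against P2, none of 31 genes was called by edgeR (0.797% of all genes were, in either direction), while 13 had an unadjusted p under 0.05, DESeq2 called 1 and the blocked fit called SLC16A3 (-1.15). TALDO1 (-0.62, adjusted p = 0.0333) and ENO1 (-0.60, adjusted p = 0.0479) had an adjusted p under the threshold at smaller folds. At P8 against P2 none of 31 was called (0.0361% of all genes were), 2 had an unadjusted p under 0.05, DESeq2 called 1 and the blocked fit called 2. These 2 were SLC2A4 (1.02) and ENO3 (1.37, adjusted p = 0.0172), and ENO3 was at 38.7, 25.9 and 24.6 at P2 and at 104, 86.8 and 43.8 at P8, higher in each donor. In FAPs of unsorted cultures at P8 against P2 none of 31 was called (0.817% of all genes were), 7 had an unadjusted p under 0.05 and DESeq2 called 0. ENO3 (0.94, adjusted p = 0.0396) was the 1 gene past the adjusted p there, at 27.2, 22.1 and 21.1 and then 52.7, 42.9 and 42.5.

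SCs of SC cultures at P5 against P2 likewise had no call among 32 genes by edgeR (3.01% of all genes were called), while 10 had an unadjusted p under 0.05 and DESeq2 called 2. Without donor 6, 1 was called. PYGL was at 86.1, 86.1 and 92.8 at P2 and 156, 162 and 158 at P5 (log2FC 0.89, adjusted p = 0.00852), with separate groups and all 3 donors higher, but it stayed under the fold threshold. All 10 cell division genes were called lower at P5 in these SCs, and their part in the values above was not tested in any of the passage comparisons.

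Isozyme shares describe how the UMIs of a step were divided. They compare genes whose 3′ tags may be captured unequally, so a share is read across cells and timepoints and not as a share of protein, and no test was run. LDHB held a median of 68.3% (60.8% to 76.8%) of LDHA and LDHB UMIs in muscle FAPs and 88.3% (80.2% to 96.1%) in muscle SCs, so the ranges did not overlap. At P0 the shares were 54.1% and 58.4%, and at P2 61.8% and 70.9%. From P2 on the median shares mix sorted and unsorted cultures, since they run over all donors with enough cells of the type. ENO3 held 12.6% of ENO1 and ENO3 UMIs in muscle FAPs and 19.3% in SCs, where fibre RNA was present, then 0.642% and 3.25% at P0, 2.08% and 28.9% at P2, 3.92% and 37.0% at P5, and 6.35% and 20.0% at P8. The P8 value of SCs rests on 156 cells in all and 4 donors with at least 10 cells, against 3586 cells and 7 donors at P5.

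ALDOC held 0.450% of ALDOA and ALDOC UMIs in muscle FAPs, 0.460% at P0, 3.2% at P2, 5.09% at P5 and 2.38% at P8, and under 1% at the median in SCs at each timepoint. SLC2A3 held 94.7% of SLC2A1 and SLC2A3 UMIs in muscle FAPs, 47.2% at P0 and 75.4% at P5, while in SCs it held 90.9%, 42.3% and 34.2%. PYGM held 77.4% of PYGL and PYGM UMIs in muscle FAPs and 0.168% at P0, and PGAM2 held 8.31% of PGAM1 and PGAM2 UMIs and then 0.0044%. PFKP held 59.9% of the 3 phosphofructokinase genes in muscle FAPs and 65.2% at P0, the PFKL share was 35.9% and 31.1%, and the PFKM share was 5.34% and 3.99%. Fibre RNA was present in muscle FAPs, and its part in their PYGM, PGAM2 and PFKM shares was not tested. HK2 stayed a small part of the hexokinase UMIs, at 3.48% in P0 FAPs and 7.05% in P0 SCs. SLC16A3 held 2.96% of its pair in P0 FAPs, 8.58% in P2 FAPs and 0.985% in P2 SCs.

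**Figure D5:**
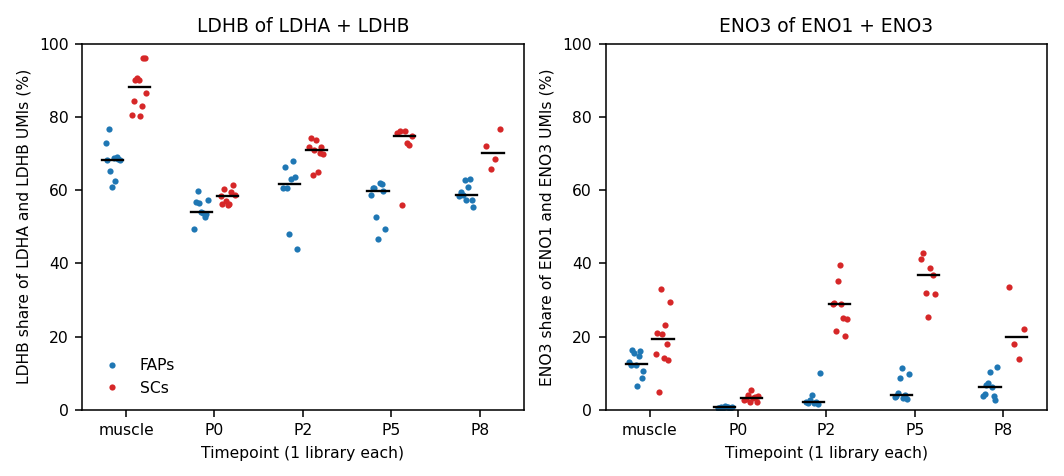
Share of LDHB in LDHA and LDHB UMIs (left) and of ENO3 in ENO1 and ENO3 UMIs (right), in percent, per donor (points) with medians (bars), in FAPs (blue) and SCs (red) at each timepoint. The SC median of ENO3 stands at 28.9% at P2 beside 2.08% in FAPs.

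Other genes of carbohydrate metabolism, 75 of which were in the matrices, were called in both directions at P0. In FAPs 37 were tested, 7 called higher and 7 lower, with a median log2FC of 0.30, where 20.9% and 22.5% of all genes were called higher and lower, so these shares lay near the background. FBP2, the muscle fructose bisphosphatase (4.56), SLC2A6, a further sugar carrier (3.85), and PCK2, mitochondrial PEP carboxykinase (2.57), rose most, while PDK4, a brake on pyruvate oxidation (-5.61), PGM5 (-3.98) and PDP1, a pyruvate dehydrogenase phosphatase (-2.81), fell most. SCs had 4 higher and 1 lower of 19 (15.8% and 18.5% of all genes), with SLC2A6 (3.32) and DLAT (1.52) among those higher, and PDK4 (-5.0) lower. VECs had 4 higher and 4 lower of 21 (15.6% and 19.6% of all genes), among them SLC2A6 (3.39) and PDK4 (-5.08).

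Genes known to respond to low oxygen were also called in both directions at P0, with 2 higher and 11 lower of 21 (FAPs), 3 and 5 of 14 (SCs) and 2 and 10 of 16 (VECs). Over all genes 20.9% were called higher and 22.5% lower in FAPs, 15.8% and 18.5% in SCs, and 15.6% and 19.6% in VECs. HIF1A rose in each (1.96, 1.01 and 1.62), and MXI1 (-3.72), BHLHE40 (-2.71) and KDM4B (-1.84) fell most in FAPs. EPAS1 rose in FAPs (3.96) and SCs (3.30) and fell in VECs (-3.13), and the interaction of FAPs against VECs was 6.96 (adjusted p = 9.27e-35). Between SCs and FAPs at P2, FBP2 was lower in SCs of sorted (-6.61) and of unsorted cultures (-3.86), SLC2A10 likewise (-2.05 and -1.93), and TKTL1, a transketolase-like gene, was higher in sorted SC cultures (2.43). These are single genes picked from the list of other carbohydrate genes. Over all genes 7.69% were called higher and 11.8% lower in SCs of sorted cultures, and 6.33% and 6.52% in those of unsorted cultures.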

How the data were processed

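The authors aligned reads with Cell Ranger 6.0.1 to the cattle genome ARS-UCD 1.2, assigned pooled cells to donors by genotype (demuxlet), filtered cells and annotated cell types. All cells used were genotype singlets in the deposited cell table, which does not remove doublets of a single animal, and no doublet caller was run here. Values in the deposited matrices are unnormalised UMI counts, and the authors' cell table gives type, donor, UMI totals and the percent of mitochondrial UMIs. Totals in that table differed from the matrix sums in all 4395 muscle and 2772 P8 cells and in 662 P0, 935 P2 and 927 P5 cells, so matrix sums were used. No column of per-sample values was left unused (0). The genes and lists were chosen with earlier results of these data known.

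Counts were summed per donor and type over at least 10 cells. Genes passed edgeR's filterByExpr, and edgeR 4.0.16 (R 4.3.3) was fitted with TMM scaling and a robust quasi-likelihood test, two-sided, with Benjamini-Hochberg adjustment over all genes tested. Interactions used 1 fit of 3 cell types. Alternatives were DESeq2 1.42.0, RLE size factors, no filter, at least 30 cells, counts thinned to the smallest sum, donor as a block, and, only where 3 donors were compared with 3, leaving out each donor. Cells were thinned to 1000 UMIs where shares of cells were compared. Isozyme shares needed 20 UMIs of the pair per donor. Intervals cover counting error only. The fits were tested on simulated data with 200 changed genes. Python 3.11.15 was used for sums and plots.

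Donor numbers mark the same animal across timepoints, so they pair the samples, which the main fits did not use. The median same-donor correlation of deviations was 0.0856 for P0 against muscle in FAPs and 0.415 for SCs against FAPs at P0. For FAPs of FAP cultures it was 0.587 at P5 and 0.821 at P8, each against P2. In each comparison called genes were named, up to the 8 with the largest change per direction, with at most 3 per direction from the lists of other carbohydrate and hypoxia genes. Isozyme pairs were described as shares, and fibre isozymes with fibre markers beside them. Which donor's culture had which sort came from the study's list of animals. Calves and adults were not compared here. No sequences were used here, and 1 gene of the lists is not reported here.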

Additional observations from a re-analysis of the deposited data

Results flagged for a closer look

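In 6 of 67 donor groups tested, 1 donor lay far from the others by Dixon's criterion, which about 5% of groups of normally distributed values meet by chance. These were TKT in muscle VECs of donor 3 (161.9 CPM), SLC2A3 in muscle FAPs of donor 5 (165.3), HK1 in muscle SCs of donor 8 (3.102), HK2 in muscle FAPs of donor 1 (3.185, a single UMI), PGAM1 in P0 FAPs of donor 5 (1199) and ENO3 in P0 FAPs of donor 6 (19.9). Levels from few UMIs are not so distributed, and the groups share donors, so 6 of 67 cannot be set against 5%.

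The change from muscle to P0 differed between cell types by the interaction test for the following genes, given as differences of log2FC. FAPs against SCs differed for SLC2A1 (1.92), PYGL (1.59), GYS1 (1.57), HK1 (-1.17), PFKL (-2.07), PFKP (-2.46), ALDOA (-1.04), ENO3 (-2.47), LDHA (-1.48), SLC16A1 (-1.07) and TKT (-2.88). FAPs against VECs differed for SLC2A3 (3.88), HK2 (fitted 4.47, not read as a size, since muscle FAPs held 1 UMI and muscle VECs 3), PFKM (1.15), LDHA (1.66), SLC16A1 (2.50), PYGL (2.82), GYS1 (2.37) and RPIA (-1.18). SCs against VECs differed for SLC2A3 (4.28), HK1 (2.12), GPI (1.31), PFKL (2.01), PFKP (2.23), ENO1 (1.09), ENO3 (2.26), LDHA (3.13), SLC16A1 (3.57), TKT (3.86), PYGL (1.23) and SLC2A1 (-1.95, tested in neither cell type alone), and the ENO1 call was lost with at least 30 cells per sum (0.93) and after thinning (0.92). With all sums thinned to one depth, the genes still testable stayed called in 5 of 7 cases (FAPs against SCs), 3 of 3 (FAPs against VECs) and 8 of 9 (SCs against VECs). Fibre RNA and cell division genes also differed between these libraries and cell types, and their part in the differences was not tested.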

How the results depend on the processing

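Counts of called genes moved by over 1.5 times in these settings. Thinned to the smallest sum, they came to 10 (from 18) in SCs and 7 (from 11) in LECs at P0 against muscle, 6 (from 11) for FAPs against SCs and 3 (from 8) for FAPs against VECs in the interaction, 1 (from 8) for SCs against FAPs in muscle, 1 (from 2) at P0, and 1 (from 0) in SCs at P5 against P2, where thinning left fewer genes to test. With no filter on low counts they were 22 (from 14) in VECs, 23 (from 12) in SMMCs, 15 (from 8) for SCs against FAPs in muscle and 1 (from 0) in SCs at P5 against P2. At least 30 cells gave 19 (from 12) in SMMCs and no value in macrophages or LECs. DESeq2 gave 1, 1 and 2 (from 0) in FAPs of FAP cultures at P5 and P8 and in SCs at P5, each against P2. RLE size factors moved no count this far. Leaving out each donor gave 4 to 10 calls (from 11) in FAPs of FAP cultures at P2 against P0, 3 to 6 (from 7) in SCs of SC cultures, and 0 to 1 (from 0) in SCs at P5 against P2. Of 1190 single-gene values, 1120 kept direction and call, 64 lost the call, 1 gained it and 5 reversed, none of them called. Over all tested genes of the 33, calls gained numbered 19 with no filter, 16 with the block, 10 with DESeq2, 7 thinned, 4 with at least 30 cells and 2 with RLE size factors. PFKL in FAPs (-0.16) was 0.11 with no filter and 0.0219 with the block, PFKL in VECs was 0.00627 with the block, PFKP in FAPs was -0.0337 thinned, and PFKL in SCs against FAPs at P0 was 0.0803 thinned. Of 64 levels, 2 moved by at least the SD of donors when the CPM of single cells were averaged instead of summing UMIs. Of 100 isozyme shares in FAPs and SCs, 3 moved by more than the SD of donors with at least 100 UMIs of the pair. The cause was not tested where no construction is named.

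With donor as a replicate block, which uses the pairing by animal, FAPs of FAP cultures had 1 call at P5 and 2 at P8 against P2 (from 0), and the single calls that changed are given beside the results. No blocked fit was possible for sorted SC against FAP cultures, which share no donor.

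Each timepoint is 1 library, so differences between timepoints cannot be told apart from differences between libraries. Muscle cells were shallow, and 3 to 11 of the 33 genes were not tested in FAPs, SCs and VECs there.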

Other observations

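FAPs found within the sorted SC cultures had levels of several genes apart from FAPs of the FAP cultures at P5. LDHA was at 466.1, 498 and 450 CPM in donors 5, 6 and 10, against 240, 200 and 195 in donors 4, 7 and 8. TPI1, the triose isomerase, was at 717, 725 and 660 against 273, 235 and 204, and ENO3 at 137, 182 and 150 against 40.9, 26.6 and 30.6. ALDOC was lower, at 18.7, 20.3 and 24.8 against 38.5, 40.4 and 40.5. The groups did not overlap for these genes at P5. At P8 LDHA was at 316, 362 and 405 against 332, 239 and 189, which overlap. TPI1 was then at 574, 622 and 738 against 536, 372 and 284, ENO3 at 109, 147 and 204 against 104, 86.8 and 43.8, and ALDOC at 18.8, 15.1 and 14.8 against 32.3, 27.1 and 20.9. This difference was chosen after its values were seen and was not tested, and donor, sort and coating cannot be told apart in it.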
